A study of Mus musculus with 16 samples.

Results

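The 40 genes described here encode liver plasma proteins and apolipoproteins, the secreted proteins that hepatocytes release into blood. They are a list of named genes of this class, matched by symbol with no threshold on expression, and all 40 were found among 53464 Ensembl genes in the count table of 16 bulk RNA-seq libraries of mouse medullary thymic epithelial cells (mTEC). Each library came from 10000 sorted mTEC of an individual mouse, and each of 8 mice gave a mature (MHCII high) and an immature (MHCII low) library. All sorted cells were CD45- EpCAM+ Ly51- UEA+. The mice, labelled C57BL/6 and 4 to 6 weeks old, belonged to an Rbfox1 and an Rbfox2 line, with 2 control and 2 tKO mice in each. Controls were Rbfox1 lox/lox :Foxn1 wildtype/wildtype or Rbfox2 lox/lox :Foxn1 wildtype/wildtype, and so carried the floxed alleles without Cre. The tKO mice had the same floxed alleles with Foxn1 wildtype/cre. Cre driven from the Foxn1 locus is used to delete the floxed splicing factor gene in thymic epithelium. Foxn1 is also expressed in keratinocytes of skin and hair follicles. The study's methods describe the background as a mixed 129S2/Sv x C57BL/6J strain, which differs from the label. Each group held 1 male and 1 female, each tKO mouse had a sex-matched littermate control, and the libraries of a group came from separate animals.

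Medullary thymic epithelial cells transcribe many genes whose products otherwise belong to single peripheral tissues, and they display the encoded peptides to developing T cells so that self-reactive cells are removed or diverted to a regulatory fate. Transcription of these self-antigens rises as mTEC mature, and part of it depends on the regulator Aire. Plasma proteins are classic examples, since in the adult they are made largely by the liver, and some apolipoproteins by the gut. In the liver their genes are driven by factors such as HNF4, FOXA and C/EBP. Many of these genes lie in clusters of relatives on a chromosome.

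Library totals ran from 3737884 to 4636367 counts in mature and from 1506134 to 2430287 in immature mTEC, so low counts were less precise in the immature libraries. The sorted populations differed in Aire as their labels imply, and both carried the epithelial marker Epcam. H2-Aa, a gene of the MHC class II that defined the sort, was not called different by the thresholds below in either set of mice. Levels are given as CPM, counts per 1000000 of the TMM-scaled library total. Epcam was at 574 to 649 CPM in mature and 710 to 800 CPM in immature libraries, and Aire at 634 to 1568 against 19.5 to 298 CPM. Rbfox2 was at 9.47 to 16.03 CPM in the Rbfox2 tKO mature libraries against 56.5 to 57.5 CPM in their controls, and at 23.5 to 37.6 against 94.1 to 105.7 CPM in the immature ones. Rbfox1 was at 29.5 to 33.8 CPM in the Rbfox1 tKO mature libraries against 48.0 to 52.0 CPM, but at 151.5 to 152.6 against 159.6 to 163.2 CPM in the immature ones, so the gene's level hardly differed there. These counts cover the whole gene, including exons outside a deleted part. Markers of other cells also differed between the populations. The 7 macrophage markers summed to 317 to 415 CPM in mature and 17.9 to 38.3 CPM in immature libraries, and the 6 thymocyte and haematopoietic markers to 45.2 to 57.8 against 3.43 to 23.3 CPM. The 6 fibroblast markers summed to 339 to 634 CPM in mature libraries and to 343 to 2773 CPM in immature ones, the 4 endothelial markers to 21.8 to 31.1 against 19.9 to 193 CPM, and the 5 erythroid markers to 37.7 to 59.98 against 19.7 to 101.5 CPM. No marker of the first 4 of these lists was at 0 throughout either population, and 1 of the 5 erythroid markers was. What part these cells have in the results below was not tested.

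Most of the plasma protein genes were higher in mature than in immature mTEC. In control mice, 25 of the 40 were called higher in mature mTEC, 3 were called lower (Apoc1, Crp and C3), 5 were tested without a call (Rbp4, Hp, Vtn, Fetub and C4b) and 7 had too few counts to test (Trf, Hpx, F9, Plg, Ahsg, Apcs and C9). A gene was called at an adjusted p under 0.05 and a fold change over 2 in the quasi-likelihood test of edgeR, with p-values adjusted after Benjamini and Hochberg over all genes tested. Of the 16058 genes tested in this comparison, 25.2% were called higher and 10.9% lower. A member that passed the count filter only through its mature libraries was bound to differ, so the count of calls is a description of the 40 genes and not support for a difference of the list. The median log2 fold change of the 33 tested members was 3.63, against 0.03 over all genes tested. It was taken over the same filtered members, so it is a description under the same limit. In the bulk libraries, fewer cells that transcribe a gene and less RNA of it per cell cannot be told apart.

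The tKO mice, which share no library with the controls, gave a like picture. There, 25 members were called higher and 4 lower of 34 tested, against 24.6% and 11.7% of the 15831 genes tested, with a median log2 fold change of 3.69 against 0.05 over all genes. In all, 26 members were called in both sets of mice, each in the same direction. The limit of the count filter given above applies to these calls and to this median too. Gc and Ambp were called in control mice alone, and Rbp4, Plg and Hp in tKO mice alone, and the difference between the sets passed the test for none of these.

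Counting libraries without a model gave a similar division. For 26 of the 40 genes every one of the 8 mature libraries, in CPM, lay above every one of the 8 immature libraries, for C3 and Crp every mature library lay below, and for 12 the populations overlapped. Among the 51906 genes of the table with any count, 12.9% had all mature libraries above all immature ones and 5.67% below. These shares include genes with very few counts, which could hardly separate the libraries. Of the 40 members, 37 had a count in all 8 mature libraries, so the shares are not over genes of like counts. The heat map of the 40 genes by library shows this as a block of high values that stops at the boundary between populations.

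**Figure D1:**
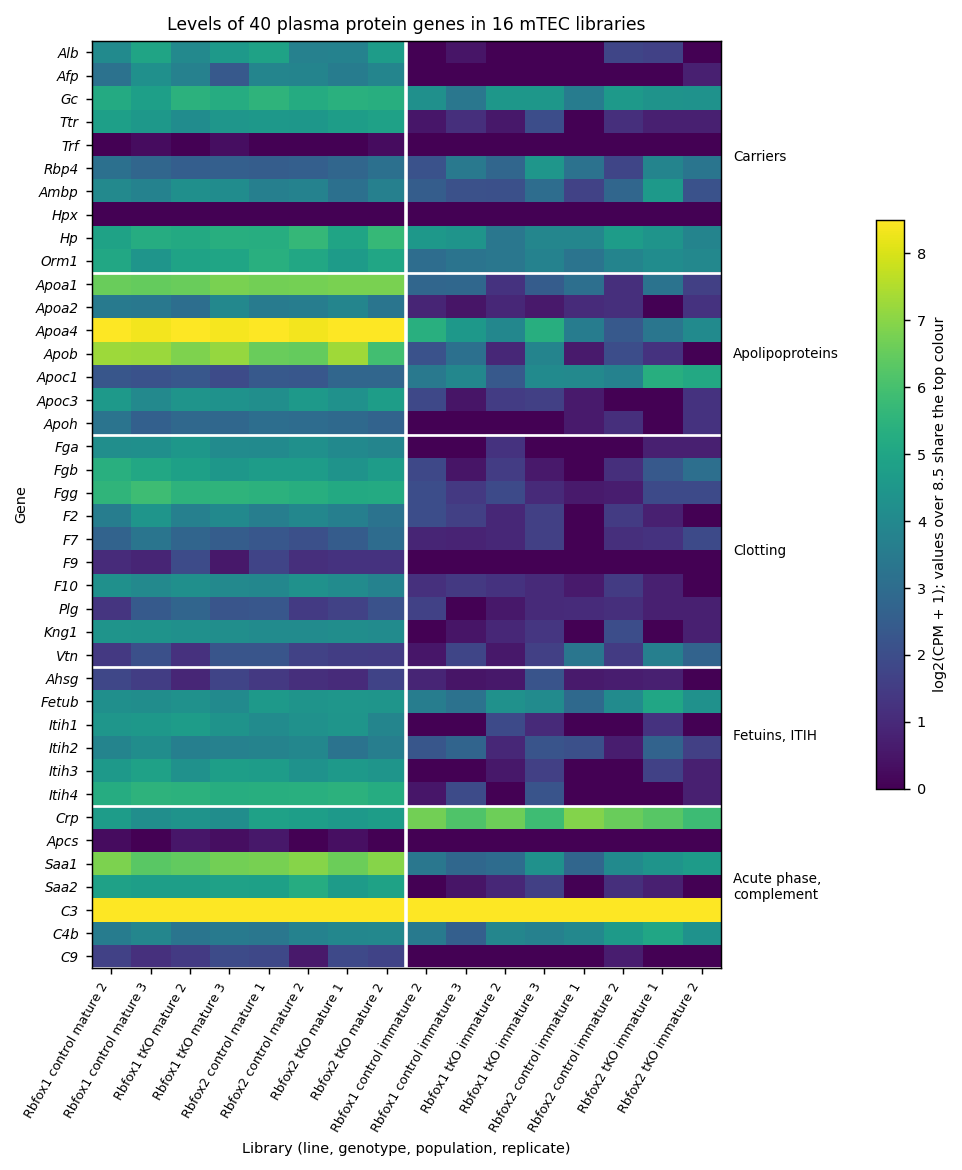
Heat map of log2(CPM + 1) of the 40 genes (rows, ordered by role) in the 16 libraries (columns, 8 mature mTEC at left and 8 immature mTEC at right). For 26 genes every mature library is above every immature library, and for C3 and Crp every mature library is below.

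How many of the genes were detected differed as well. A mature library had at least 1 count in 37 to 39 of the 40 genes (median 38) and an immature library in 23 to 31 (median 29). With every library thinned to 1506134 counts, the numbers were 36 to 39 (37.1 ± 0.991, mean ± SD, n = 8) and 22 to 30 (27.2 ± 2.55), so the populations still did not overlap at equal depth. In the thinned libraries 32 to 34 genes had 5 or more counts in mature mTEC and 11 to 18 in immature mTEC. Detection over all genes is not given here. Whether the difference is particular to the 40 genes therefore cannot be told from these numbers, which are a description.

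The 40 genes together accounted for 0.221% to 0.259% of all counts in mature libraries and 0.26% to 0.606% in immature ones. C3 alone made up 42.0% to 51.7% of these counts in mature and 91.1% to 95.6% in immature libraries. Leaving C3 out, the other 39 genes summed to 1204 to 1315 CPM in mature mTEC (1239 ± 34.0, n = 8) and to 212 to 346 CPM in immature mTEC (263 ± 41.2, n = 8), with no overlap. Without C3 the summed level thus differed between populations in the direction opposite to the sum with it, 2105 to 2590 CPM in mature against 2579 to 6359 CPM in immature libraries, where the ranges met at their edge.

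The promoters of these genes, 250 bases before to 50 bases after the transcription start in RefSeq (build GRCm38.p6), were found for 31 of the 40 genes (34 promoters). They were searched on both strands for letters of factors known from the liver and for the TATA box, and no match to 1 set of letters shared a base with a match to another set. The TATA letters TATAAA were in 10 of the 34 (29.4%) and in 13.6% of all 32851 promoters of the table, and the 10 were those of Afp, Apoa2, Apob, C3, Crp, Fetub, Itih3, Itih4, Rbp4 and Vtn. The FOXA letters TGTTTAC were in 4 (11.8%, against 3.65%; Apoa2, Apoh, Fetub and Rbp4), the C/EBP letters TTGCNNCAA in 1 (2.94%, against 2.08%; Fga), and the HNF4 letters CAAAGTCCA in 0 (against 0.475%). The TATA letters were counted anywhere in the promoter, at offsets from the start of -212 (Apoa2) to 14 (C3). A match therefore need not lie where a TATA box would. These matches are a description of the letters alone.

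The promoters of Alb, Afp and Fga are shown because every mature library of these genes lay above every immature one, which Afp and Fga reached from 0 counts in control immature mTEC. Each runs 5′ to 3′ on the strand of its gene, with every match to 1 of the 4 sets of letters in capitals. Afp held TATA letters, Fga C/EBP letters and Alb none of the 4 sets. Letters of HNF1, another liver factor, were planned as well but are not among the 4 sets, and matches to them are not marked. A promoter without capitals can therefore still hold letters of a liver factor.
Alb (chr5:90460620-90460919, plus strand): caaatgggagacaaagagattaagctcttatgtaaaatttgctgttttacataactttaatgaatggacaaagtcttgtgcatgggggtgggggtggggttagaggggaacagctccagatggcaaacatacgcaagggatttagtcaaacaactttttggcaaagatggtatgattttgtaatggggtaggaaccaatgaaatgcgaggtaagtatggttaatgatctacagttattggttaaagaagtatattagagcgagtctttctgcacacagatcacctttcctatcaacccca
Afp (chr5:90490464-90490763, plus strand): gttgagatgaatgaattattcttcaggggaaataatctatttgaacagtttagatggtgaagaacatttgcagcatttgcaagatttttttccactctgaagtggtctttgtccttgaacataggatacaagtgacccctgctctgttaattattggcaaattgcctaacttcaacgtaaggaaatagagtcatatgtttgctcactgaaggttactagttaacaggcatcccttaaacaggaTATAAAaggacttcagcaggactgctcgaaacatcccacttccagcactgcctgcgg
Fga (chr3:83025903-83026202, plus strand): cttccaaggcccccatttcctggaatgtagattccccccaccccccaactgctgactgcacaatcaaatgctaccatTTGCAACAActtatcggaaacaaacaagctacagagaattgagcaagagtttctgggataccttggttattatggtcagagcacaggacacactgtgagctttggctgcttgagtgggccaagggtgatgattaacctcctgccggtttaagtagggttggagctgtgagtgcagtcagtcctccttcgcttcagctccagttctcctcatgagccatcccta

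3 more promoters are shown for contrast. Apoa4 had the highest level per length of the apolipoproteins in mature mTEC and no match to any of the 4 sets of letters. Crp and C3, the pair whose mature libraries all lay below the immature ones, each had TATA letters. Their positions differed, at an offset of -31 from the start in Crp and of 14, past the start, in C3.
Apoa4 (chr9:46240594-46240893, plus strand): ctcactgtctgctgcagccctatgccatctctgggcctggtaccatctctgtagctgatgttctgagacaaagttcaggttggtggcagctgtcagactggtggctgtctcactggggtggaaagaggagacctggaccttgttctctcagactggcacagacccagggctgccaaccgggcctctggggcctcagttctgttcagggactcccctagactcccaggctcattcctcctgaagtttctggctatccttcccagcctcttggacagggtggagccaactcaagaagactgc
Crp (chr1:172697806-172698105, plus strand): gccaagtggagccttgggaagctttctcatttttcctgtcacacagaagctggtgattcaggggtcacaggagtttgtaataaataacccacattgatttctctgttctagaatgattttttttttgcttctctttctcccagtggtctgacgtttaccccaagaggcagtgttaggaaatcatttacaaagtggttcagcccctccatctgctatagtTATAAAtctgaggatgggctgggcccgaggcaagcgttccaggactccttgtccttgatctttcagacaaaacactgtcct
C3 (chr17:57228087-57228386, minus strand): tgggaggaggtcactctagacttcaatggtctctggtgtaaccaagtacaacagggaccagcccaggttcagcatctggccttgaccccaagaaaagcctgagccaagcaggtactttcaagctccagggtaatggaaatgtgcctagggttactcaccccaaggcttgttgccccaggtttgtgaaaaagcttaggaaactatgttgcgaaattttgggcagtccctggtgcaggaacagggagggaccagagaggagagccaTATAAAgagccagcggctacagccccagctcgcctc

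Carriers of hormones, vitamins, metals, haem and lipids numbered 10, and in control mice 6 were called higher in mature mTEC and 0 lower, 2 were tested without a call and 2 were untested. Albumin (Alb), the main carrier protein of plasma, had a lowest, median and highest level of 12.2, 19.3 and 30.1 CPM in the 8 mature libraries and 0, 0 and 2.40 CPM in the 8 immature ones. Its 4 control mature libraries held 75, 141, 125 and 50 counts and its 4 control immature libraries 0, 1, 0 and 4. All mature libraries were above all immature ones, by a log2 fold change of 5.10 ± 0.62 (SE, n = 4 against 4, adjusted p = 4.11e-06, edgeR's quasi-likelihood test) in control mice.

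Alpha-fetoprotein (Afp), the fetal relative of albumin, had 39, 86, 58 and 54 counts in the control mature libraries and 57, 18, 40 and 59 in the tKO mature libraries. In immature mTEC it had 0 counts in all 4 control libraries and 1 count in 1 of the 4 tKO libraries. A count of 0 over the control immature libraries allows up to 0.362 CPM (3 counts over the group), and Afp was therefore at least 36.8-fold higher in control mature mTEC. Such limits, here and below, take the mature counts as observed and cover only the counting error of the 0. In addition, duplicates were removed by position and not by molecular identifiers.

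Transthyretin (Ttr), a carrier of thyroxine and of retinol-binding protein, was at 16.4 to 28.2 CPM in mature and 0 to 3.06 CPM in immature libraries, without overlap (log2 fold change 4.95 ± 0.35, adjusted p = 1.14e-08, edgeR). Retinol-binding protein (Rbp4) did not share this pattern. Its lowest, median and highest levels were 4.66, 5.43 and 7.795 CPM in mature and 2.40, 8.55 and 20.9 CPM in immature libraries, which enclosed the mature range. The log2 fold change was -0.03 in control mice (adjusted p = 0.947) and -1.06 in tKO mice (adjusted p = 0.00898, edgeR), the latter call being lost without Rbfox1 tKO replicate 3, whose immature library had the highest level.

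Vitamin D-binding protein (Gc) was measured well above 0 in both populations. It stood at 26.7, 38.2 and 45.4 CPM in mature and 9.39, 19.4 and 22.8 CPM in immature libraries (lowest, median and highest), and all mature libraries were above all immature ones. Its log2 fold change was 1.25 ± 0.22 in control mice (adjusted p = 0.000128) and 0.98 ± 0.13 in tKO mice (adjusted p = 4.55e-06, edgeR), so the second fell just short of the fold that a call required.

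Ambp, the precursor of alpha-1-microglobulin and of the protease inhibitor bikunin, was at 7.85 to 18.0 CPM in mature and 2.17 to 23.0 CPM in immature libraries. The overlap came from Rbfox2 tKO replicate 1, whose immature library held 33 Ambp counts against 4 to 14 in the other 7. The log2 fold change was 1.71 ± 0.27 in control mice (adjusted p = 4.9e-05) and 0.68 ± 0.43 in tKO mice (adjusted p = 0.171, edgeR). Without that replicate the tKO value was 1.78 and was called, with adjusted p from 4.98e-05 to 0.769 over the 13 alternatives run.

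Orosomucoid (Orm1), the acute-phase alpha-1-acid glycoprotein, was at 20.5 to 39.8 CPM in mature and 7.28 to 16.7 CPM in immature libraries (log2 fold change 1.76 ± 0.20, adjusted p = 2.66e-06, edgeR). Haptoglobin (Hp), which binds free haemoglobin, was at 29.1 to 51.3 against 9.26 to 25.2 CPM. For both genes the populations did not overlap. The log2 fold change of Hp was 0.90 ± 0.18 in control and 1.52 ± 0.21 in tKO mice, so that the call in tKO mice alone reflected the required fold and not a tested difference between them.

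The remaining 2 carriers were close to or at 0. Transferrin (Trf), the iron carrier, had 3 counts in all, 1 in each of 3 mature libraries, and hemopexin (Hpx), the haem carrier, had 0 counts in the 16 libraries. Around them, other genes were counted. Apbb1, the gene beside Hpx, had 70 to 99 counts in each mature library, and Rab6b, near Trf, had 23 to 41. Gm20425, a gene model that shares exons with Trf, had 4 counts in all, and how reads that fell on both were counted is unknown here.

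Among the 7 apolipoproteins, 6 were called higher in mature mTEC in control and in tKO mice, and Apoc1 was called lower in both. Apoa4, a chylomicron and high-density lipoprotein component made mainly by the gut in adults, had 1876, 1527, 1585 and 1330 counts in the control mature libraries and 93, 54, 20 and 7 in the control immature ones. Over all 16 libraries its lowest, median and highest levels were 325, 375 and 395 CPM in mature and 4.19, 15.1 and 39.8 CPM in immature mTEC. The mature libraries lay within a narrow band while the immature ones spread widely below it, at a log2 fold change of 4.18 ± 0.26 in control (adjusted p = 3.78e-09) and 4.22 ± 0.21 in tKO mice (adjusted p = 1.37e-11, edgeR).

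Apoa1, the main protein of high-density lipoprotein, was at 89.8, 103.7 and 110.5 CPM in mature and 1.198, 5.30 and 8.37 CPM in immature libraries. The ranges were far apart, with a log2 fold change of 4.17 ± 0.19 (adjusted p = 1.82e-10, edgeR). Apob, the scaffold of chylomicrons and very-low-density lipoprotein, was at 59.5, 129.5 and 156.4 CPM in mature and 0, 2.2 and 13.3 CPM in immature libraries. It also separated the populations, by 5.0 ± 0.20 (adjusted p = 3.99e-11), although its mature libraries differed more among themselves than those of Apoa1 did. Apoc3, an inhibitor of lipoprotein lipase, Apoa2, another high-density lipoprotein component, and Apoh, the phospholipid-binding beta-2-glycoprotein I, had medians of 19.4, 10.4 and 6.38 CPM in mature mTEC and of 0.962, 0.892 and 0 CPM in immature mTEC, again without overlap. Apoh rested on 3 counts in the control immature libraries, and the ratio of mature to immature CPM was 19.6, with an exact 95% counting interval from 6.54 to 96.1.

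Apoc1, a small apolipoprotein of triglyceride-rich particles, went the other way. Its lowest, median and highest levels were 2.81, 3.91 and 5.95 CPM in mature and 4.17, 14.7 and 39.0 CPM in immature libraries, and in each of the 8 mice the immature library was the higher. The populations overlapped only through Rbfox1 tKO replicate 2, which had the lowest immature level with 9 counts. The log2 fold change was -1.74 ± 0.23 in control (adjusted p = 9.74e-06) and -2.18 ± 0.31 in tKO mice (adjusted p = 9.11e-06, edgeR). In the plot of log2 fold changes the apolipoproteins other than Apoc1 lie together far to the right.

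**Figure D2:**
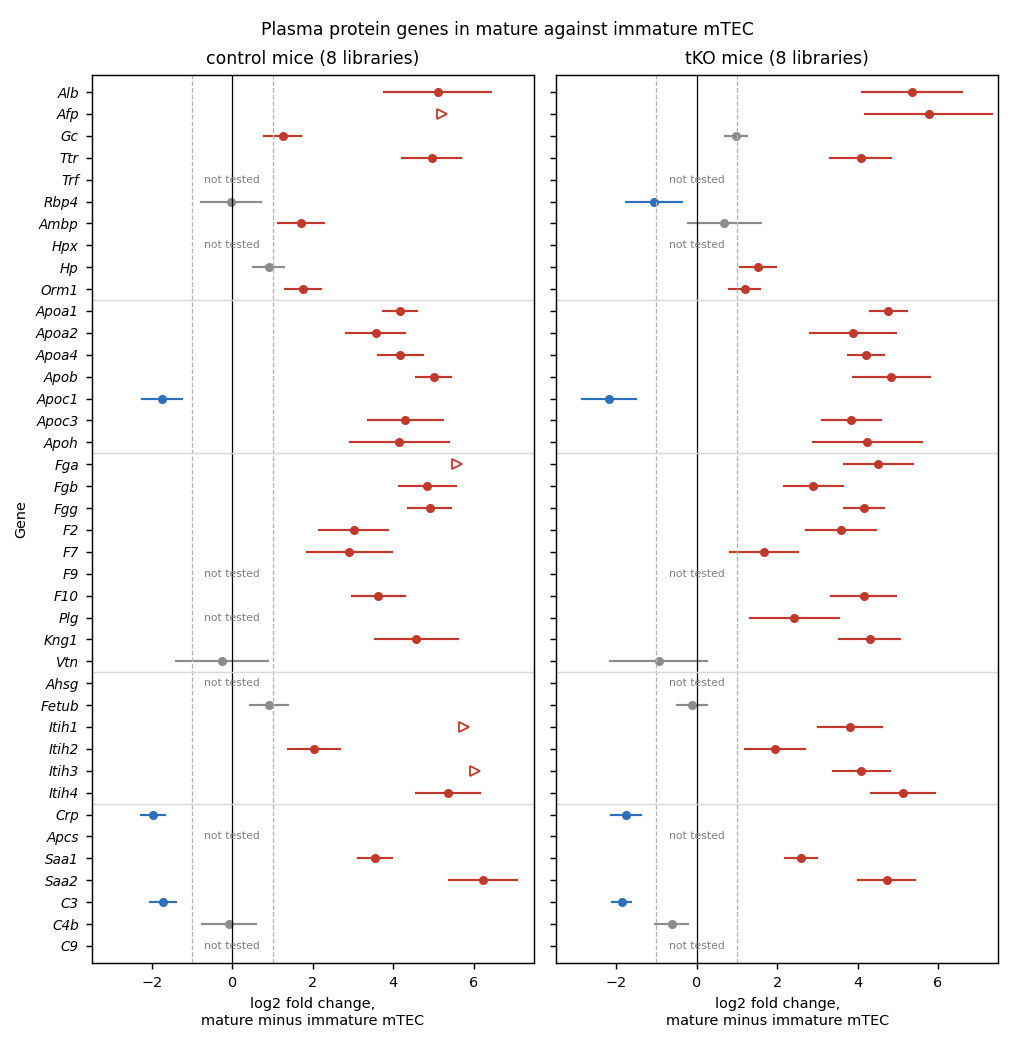
Log2 fold change of mature against immature mTEC (x axis, positive where mature is higher) for each member tested in control and in tKO mice, grouped by role, with 95% confidence intervals, and lower bounds on the fold where all 4 immature libraries of a set had 0 counts. Apoc1, Crp and C3 lie to the left of 0 in both sets of mice, while Apoa1, Apoa4 and Apob lie between 4.17 and 5.0 in control mice.

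Of the 10 proteins of clotting, its inhibition and fibrinolysis, 7 were called higher in mature mTEC of control mice and 0 lower. The 3 chains of fibrinogen, the precursor of fibrin, are encoded by the neighbors Fgg, Fga and Fgb. Fgg was at 34.9, 43.7 and 56.5 CPM in mature and 0.542, 2.20 and 2.998 CPM in immature libraries, with a log2 fold change of 4.9 ± 0.25 (adjusted p = 4.68e-10, edgeR). Fga had 82, 84, 68 and 74 counts in the control mature libraries and 0 in each of the 4 control immature ones, which put it at least 47.8-fold higher in mature mTEC. Fgb, at 19.8 to 40.4 CPM against 0 to 7.59 CPM, differed by 4.85 ± 0.33 (adjusted p = 9.81e-09). No mature library of any chain overlapped an immature one.

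Among the vitamin K-dependent factors, factor X (F10) was at 12.6 to 18.8 CPM in mature and 0 to 1.80 CPM in immature libraries (log2 fold change 3.63 ± 0.31, adjusted p = 9.87e-08), and prothrombin (F2) at 8.47 to 20.5 against 0 to 2.998 CPM (3.01 ± 0.40, adjusted p = 1.07e-05, edgeR). Factor VII (F7), which starts the extrinsic pathway with tissue factor, was lower at 3.18 to 8.96 against 0 to 2.76 CPM (2.91 ± 0.50, adjusted p = 0.000109). Factor IX (F9), on the X chromosome, was the lowest of them with 2 to 13 counts in each mature library and 0 counts in all 8 immature ones. It had too few counts for the test. With the mature counts taken as observed, its ratio was at least 3.73-fold in control and at least 3.58-fold in tKO mice. The error of those few mature counts is not in these limits. For these 4 genes every mature library was above every immature one.

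Kininogen (Kng1), the precursor of bradykinin, was at 16.03 to 20.02 CPM in mature and 0 to 2.995 CPM in immature libraries (4.58 ± 0.48, adjusted p = 9.07e-07, edgeR). Plasminogen (Plg), whose product dissolves fibrin, had 7 to 27 counts in mature mTEC libraries and 0 to 5 in immature ones, and the CPM ranges overlapped. It was tested in tKO mice alone, where its log2 fold change was 2.43 ± 0.53 (adjusted p = 0.000578), and without Rbfox1 tKO replicate 2 it was not tested there. Vitronectin (Vtn), an adhesive protein that other tissues make too, was at 1.30 to 3.75 CPM in mature and 0.428 to 11.8 CPM in immature libraries and was not called in either set of mice (log2 fold change -0.26, adjusted p = 0.686 in control mice).

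The 6 fetuins and inter-alpha-trypsin inhibitor heavy chains held the genes with the highest bounds. Some of the heavy chains become linked to hyaluronan in the extracellular matrix. Itih3 had 108, 132, 106 and 79 counts in the control mature libraries and 0 in all 4 control immature ones, so that it was at least 66.0-fold higher in mature mTEC. Itih1 had 99, 104, 69 and 76 counts against 0, at least 54.0-fold higher. In tKO mice both genes had counts in immature mTEC, where Itih3 had 1, 4, 3 and 1 and Itih1 had 6, 2, 2 and 0, and their log2 fold changes were 4.09 ± 0.34 and 3.81 ± 0.37 (adjusted p = 8.29e-09 and 8.25e-08, edgeR).

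Itih4, at 37.6 to 43.9 CPM in mature and 0 to 3.57 CPM in immature libraries, had a log2 fold change of 5.36 ± 0.37 (adjusted p = 9.62e-09, edgeR), and Itih2, at 8.39 to 16.8 against 0.599 to 5.72 CPM, of 2.03 ± 0.30 (adjusted p = 3.27e-05). The populations did not overlap for any of the 4 heavy chains. Fetuin-B (Fetub), an inhibitor of the zona pellucida protease ovastacin, overlapped widely, at 15.9 to 23.3 against 6.51 to 31.4 CPM. Its log2 fold change was 0.91 ± 0.22 in control (adjusted p = 0.00199) and -0.12 ± 0.18 in tKO mice (adjusted p = 0.573, edgeR). Fetuin-A (Ahsg), which inhibits calcification, stayed low with 4 to 12 counts in mature and 0 to 7 counts in immature libraries and was not tested.

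Acute-phase and complement proteins, 7 in number, split in direction, with 2 called higher, 2 called lower, 1 not called and 2 untested in control as in tKO mice. Serum amyloid A (Saa1 and Saa2), a pair of acute-phase apolipoproteins, were higher in mature mTEC. Saa1 was at 80.0, 105.0 and 124.3 CPM in mature and 5.97, 12.5 and 24.2 CPM in immature libraries (log2 fold change 3.55 ± 0.20, adjusted p = 1.09e-09, edgeR). Saa2 was at 24.6, 27.8 and 37.7 CPM against 0, 0.553 and 2.04 CPM. It rested on 3 control immature counts, and its ratio of 82.6 had an exact 95% counting interval from 28.1 to 402. The genes are near-identical copies, so how reads were split between them is uncertain, but their sum, at 106 to 162 CPM in mature and 5.97 to 24.2 CPM in immature libraries, separated the populations without that split.

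C-reactive protein (Crp), a pentraxin of the acute phase, was lower in mature mTEC, at 17.1, 23.7 and 28.0 CPM against 55.9, 85.1 and 119.3 CPM. Even the lowest immature library was above the highest mature one. The log2 fold change was -1.98 ± 0.14 in control (adjusted p = 1.24e-08) and -1.76 ± 0.18 in tKO mice (adjusted p = 1.01e-07, edgeR). The other pentraxin, serum amyloid P (Apcs), had 7 counts in all, with 0 to 2 in a mature library and 0 in every immature one.

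C3, the protein on which the complement pathways converge, had the highest level of the 40 genes and was also lower in mature mTEC. Its counts were 5775, 4144, 5012 and 4564 in the control mature libraries and 6594, 5799, 9740 and 8171 in the control immature ones, which were the shallower. In CPM the lowest, median and highest values were 884, 1132 and 1339 in mature and 2368, 4049 and 6013 in immature mTEC, without overlap. The log2 fold change was -1.72 ± 0.15 in control (adjusted p = 1.1e-07) and -1.87 ± 0.11 in tKO mice (adjusted p = 9.54e-11, edgeR). C4b, a further complement component, was at 8.87 to 14.6 CPM in mature and 4.899 to 31.4 CPM in immature libraries and was not called (log2 fold change -0.09, adjusted p = 0.822). C9, which forms the pore of the membrane attack complex, had 2 to 12 counts in each mature library and 1 count in 1 of the 8 immature libraries, a control. Its untested ratio of mature to immature CPM was 13.5 in control mice, with an exact 95% counting interval from 2.24 to 552. In tKO mice the ratio was at least 5.5-fold, with the mature counts taken as observed.

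**Figure D3:**
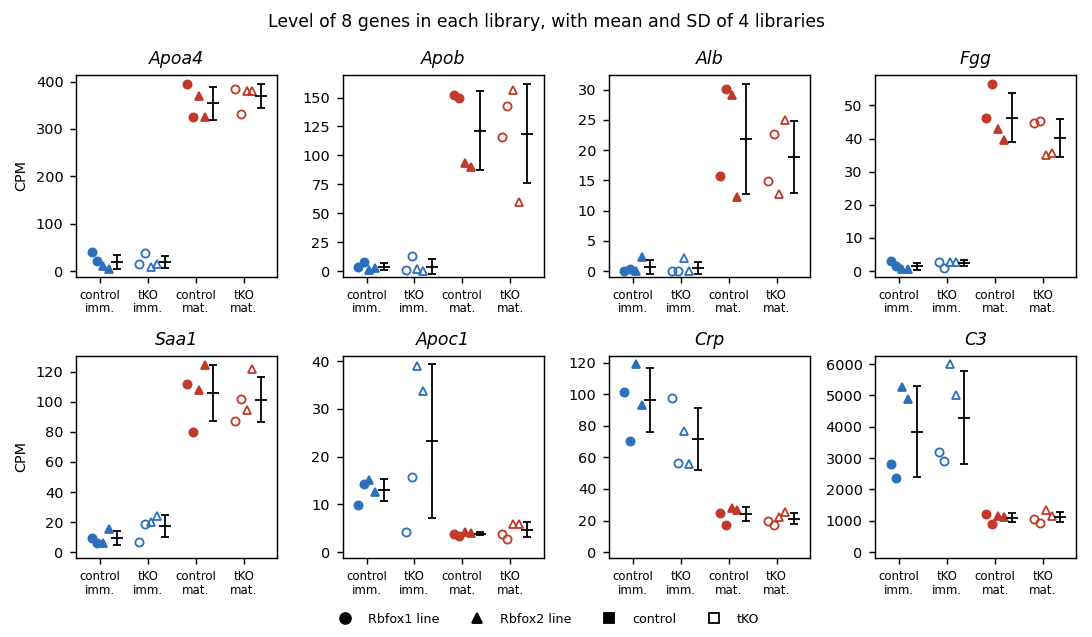
CPM of 8 members in each of the 16 libraries (points, by line and genotype) in mature and immature mTEC, each panel with its own axis. C3 and Crp are higher in every immature library, Apoc1 is higher in the immature library of each mouse, and the mature points of Apoa4 stay between 325 and 395 CPM.

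C3 and C4b also divided the immature libraries by mouse line. C3 was at 2368 to 3204 CPM in the 4 immature libraries of the Rbfox1 line and at 4895 to 6013 CPM in the 4 of the Rbfox2 line, with control and tKO libraries of a line together, and C4b at 4.899 to 13.9 against 14.6 to 31.4 CPM. These were the only 2 of the 16 members tested in immature mTEC whose lines did not overlap with the Rbfox2 line higher (11.3% of all genes), and 0 had the Rbfox2 line lower (12.1% of all genes). In mature mTEC, Apoc1 and Fetub were higher in every Rbfox2-line library (9.12% of all genes) and Ambp, Fgg and Kng1 lower (9% of all genes), of 37 members tested. These counts of members were near or below the shares over all genes, so a division by line was not particular to the members. Fibroblast markers divided the immature libraries in the same way as C3, at 343 to 707 CPM in the Rbfox1 line and 1853 to 2773 CPM in the Rbfox2 line, and endothelial markers at 19.9 to 56.8 against 58.7 to 193 CPM. Their part in the C3 and C4b levels was not tested. The fall of C3 in mature mTEC held within each line, since every mature library of either line was below every immature library of both. The line, its floxed allele and any difference in handling between the lines cannot be told apart.

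Several of the genes lie beside each other, and neighbors differed in level. In CPM per kilobase of exon (CPM per kb), averaged over the 4 control mature libraries, the cluster on chromosome 9 held Apoa4 at 195 ± 18.95, Apoa1 at 79.1 and Apoc3 at 19.2, with gaps of 2466 bases from Apoa1 to Apoc3 and 5059 bases from Apoc3 to Apoa4. The fibrinogen genes on chromosome 3, 11026 and 6513 bases apart, stood at 22.1 (Fgg), 5.74 (Fga) and 8.14 (Fgb) CPM per kb. Itih4, Itih3 and Itih1 on chromosome 14 were at 10.9, 6.52 and 5.90 CPM per kb. In these clusters every gene was higher in mature mTEC.

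Pairs of neighbors with a wider gap in level were also present. Fetub was at 9.95 and Ahsg, 18884 bases away on chromosome 16, at 0.831 CPM per kb in control mature mTEC. Crp was at 7.02 CPM per kb in control mature and 27.9 in control immature mTEC. Apcs, 60929 bases away on chromosome 1, was at 0.174 CPM per kb in mature and had no count in immature mTEC. The annotated Crp gene runs from base 172698055 to 172833031 with 3444 exon bases. Its gap to Apcs and its level per kb depend on that annotation. Alb and Afp, 14134 bases apart on chromosome 5, were at 9.31 and 3.96 CPM per kb, Saa1 and Saa2, 8809 bases apart on chromosome 7, at 42.8 and 11.9, and F10 and F7, 1498 bases apart on chromosome 8, at 6.09 and 2.90. The plot of neighbors gives these levels library by library.

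**Figure D4:**
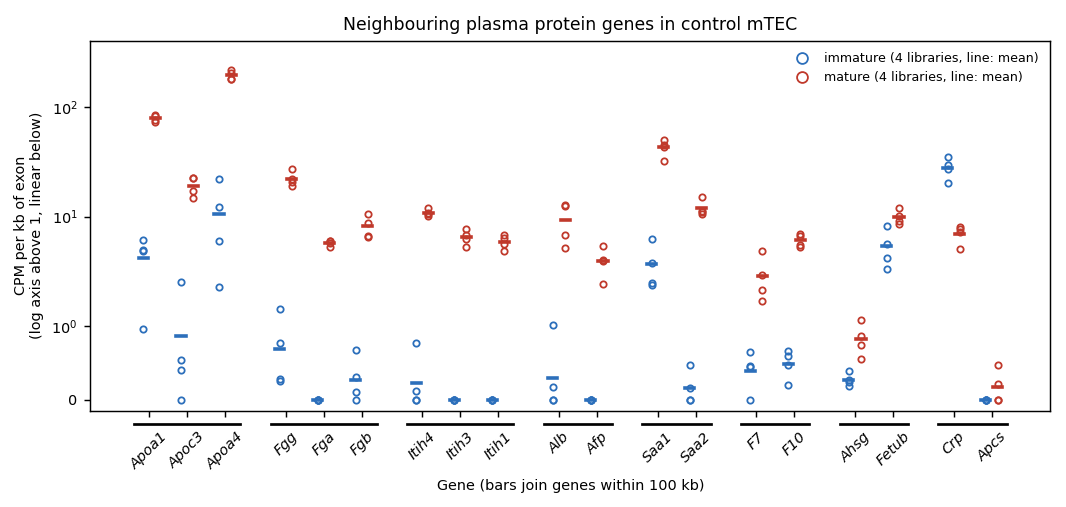
CPM per kilobase of exon of members that lie within 100 kb of another member, in each library, by cluster, for mature and immature mTEC. Apoa4 is the highest of its cluster at a mean of 195 CPM per kb in control mature mTEC, and Fetub and Crp are well above their neighbors Ahsg and Apcs.

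Ordered by CPM per kb in control mature mTEC, C3 (213 ± 28.6) and Apoa4 (195 ± 18.95) led and did not differ beyond their spread, followed by Apoa1 (79.1), Saa1 (42.8), Orm1 (40.8), Hp (23.9), Fgg (22.1) and Gc (19.6). In control immature mTEC, C3 stood at 747 CPM per kb and Crp at 27.9.

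Libraries of a group differed from each other by more than counting error for some of the members. The chi-square statistic per degree of freedom within groups, which is 1 for counting error alone, had a median of 2.06 over the 37 members tested in mature mTEC and 1.44 over all genes tested. It was above the 90th percentile of all genes, 4.23, for 9 members, among them C3 (86.6), Apob (48.5), Alb (18.1), Apoa4 (15.2), Saa1 (12.3) and Afp (9.2). The statistic grows with the count at a given relative spread, and the 9 genes had a median of 168 counts against 71.9 for the other members. In immature mTEC the median was 4.32 over the 16 members tested and 1.32 over all genes, and 10 members were above the 90th percentile of 3.81 (C3, Crp, Apoa4, Apob, Rbp4, Ambp, Saa1, Apoc1, Vtn and Apoa1). There the members above it had the lower median count, 20.4 against 28.7.

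The libraries labelled Rbfox1 tKO or Rbfox2 tKO were compared with the controls of the same line in each population. In immature mTEC the total Rbfox1 level was close to that of the controls in the libraries labelled Rbfox1 tKO, so the total does not bear out the labels there. Counts over the whole gene include exons outside a deleted part, so they cannot show whether the floxed part was deleted. None of the 40 genes was called in any of the 4 comparisons in edgeR's quasi-likelihood test, and DESeq2 also called 0. In mature mTEC 37 members were tested in each line. For Rbfox1, 3 genes of 18021 were called (0.0166%), and at an unadjusted p under 0.05 there were 2 members of 37 against 3.35% of all genes (1 member with DESeq2). For Rbfox2, 5 genes were called (0.0277%), and 0 members had an unadjusted p under 0.05 against 5.34% of all genes (0 with DESeq2). In immature mTEC 16 members were tested. For the libraries labelled Rbfox1 tKO, 4 of 13060 genes were called (0.0306%), and 3 of 16 members had an unadjusted p under 0.05 against 5.9% of all genes (1 with DESeq2). For Rbfox2, 7 genes were called (0.0536%), and 5 of 16 members had an unadjusted p under 0.05 against 6.25% of all genes (4 with DESeq2).

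The members with the smallest p in these comparisons moved by modest amounts. Fgb, with 40.5 and 33.5 CPM in the Rbfox1 control and 27.5 and 21.8 CPM in the Rbfox1 tKO mature libraries, had a log2 fold change of -0.58 (adjusted p = 0.9996), and Gc one of 0.36 (adjusted p = 0.9996). In Rbfox2 tKO mature mTEC, Orm1 had a log2 fold change of -0.38 and F7 of 0.72 (adjusted p = 0.926 for both, edgeR). Hp had 52 and 49 counts in the Rbfox1 control and 20 and 27 in the immature libraries labelled Rbfox1 tKO, a log2 fold change of -0.88 (adjusted p = 0.751), and Fetub had 26 and 20 against 40 and 32, a log2 fold change of 0.85 (adjusted p = 0.818).

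In immature mTEC of the Rbfox2 line, Apoc1 had 28 and 21 counts in the control and 56 and 49 in the tKO libraries. Both tKO libraries were above both control libraries, at a log2 fold change of 1.40 (adjusted p = 0.357, edgeR). With no filter on low counts the value was 1.37 at an adjusted p of 0.00213, and over the 13 alternatives run the adjusted p ranged from 0.00213 to 1. Fetub had 12 and 27 against 45 and 27 counts, a log2 fold change of 1.17 (adjusted p = 0.62). The 95% intervals in the plot of tKO against control reached past a 2-fold change in either direction for 9 (Rbfox1) and 8 (Rbfox2) of the 37 members in mature mTEC and for 14 of the 16 in immature mTEC of either line, so changes of that size are not excluded for those members.

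**Figure D5:**
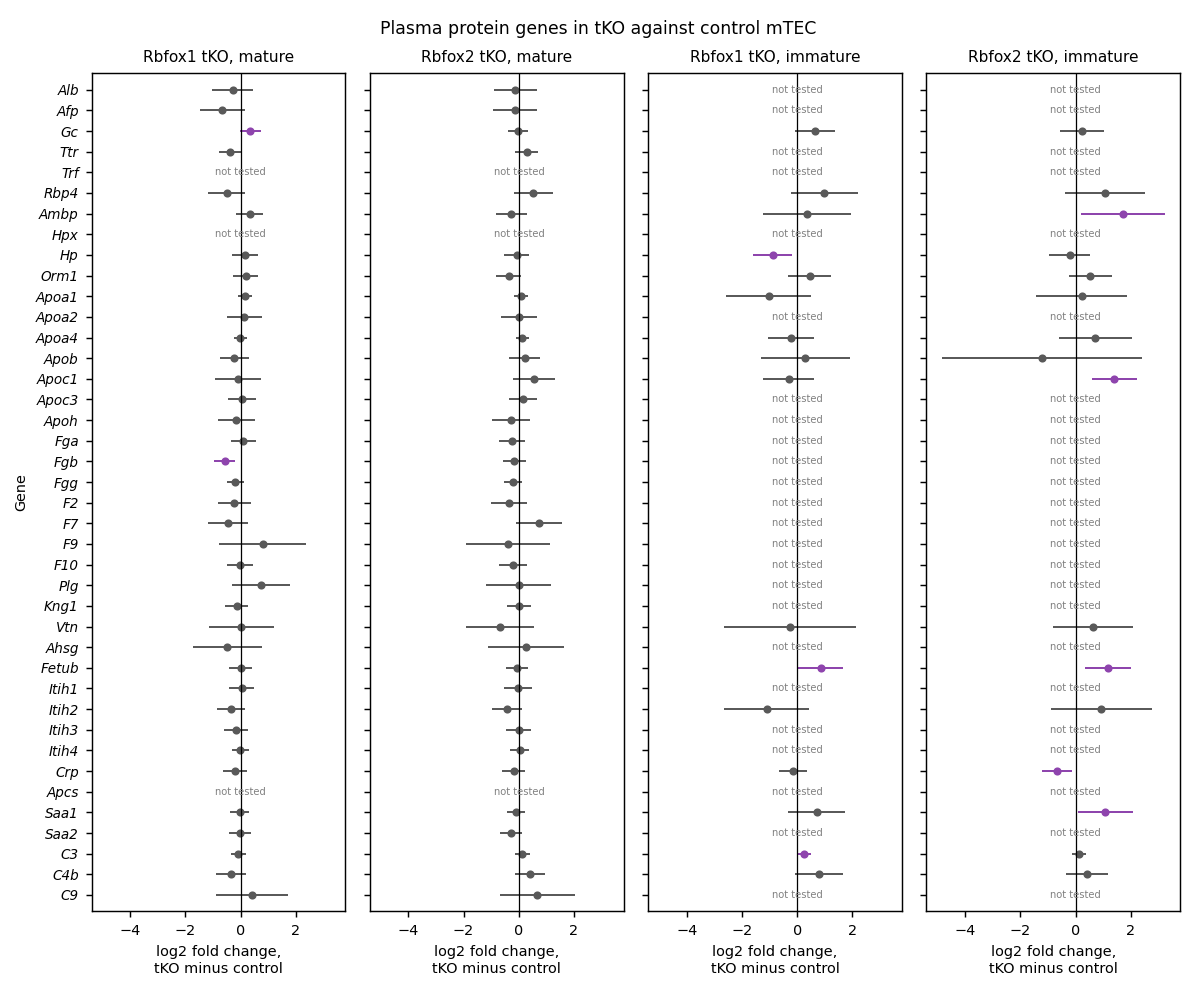
Log2 fold change of tKO against control (x axis, positive where tKO is higher) with 95% confidence intervals for the members tested in mature (37) and immature (16) mTEC of each line. None passed the test over all genes, and the values furthest from 0 have wide intervals.

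Whether the difference between populations itself changed in tKO mice was tested as an interaction over all 16 libraries. Of 17442 genes, 0 were called by edgeR (0%) and 0 by DESeq2, and at an unadjusted p under 0.05 there were 7 of 34 members against 5.2% of all genes (6 members with DESeq2). The 7 were Itih3, Fetub, Itih1, Fga, Saa1, Fgb and Fgg, all with a smaller difference in tKO mice, and the smallest adjusted p among members was 0.617. Since both libraries of a mouse come from the same animal, the mouse was also fitted as a replicate block. Then 27 genes were called, 0 of them members, and 11 members had an unadjusted p under 0.05. The smallest adjusted p among members was then 0.0548, and over the 16 alternatives run it ranged from 0.0548 to 1.

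For 3 of the 7 genes the interaction rests on counts of 0 in control immature mTEC. Itih3 had 0 counts there and 9 over the tKO immature libraries, Itih1 0 and 10, and Fga 0 and 5. Fetub was measured in every library, and its log2 fold change was smaller in tKO mice by -1.04 ± 0.28 (unadjusted p = 0.0012, adjusted p = 0.617, edgeR). Saa1 had 22, 15, 11 and 26 counts in control and 15, 37, 29 and 35 in tKO immature libraries, a difference between log2 fold changes of -0.95 ± 0.34 (adjusted p = 0.885). The control and tKO immature libraries overlapped for Saa1, while for Fetub the tKO immature libraries, at 16.3 to 31.4 CPM, lay just above the control ones, at 6.51 to 16.2 CPM.

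Other genes of hepatocyte and lipoprotein biology, taken from lists by function, were measured beside the 40. Of 37 further plasma proteins, 18 were tested in control mice, with 10 called higher in mature mTEC and 3 lower. The shares over all genes tested were 25.2% higher and 10.9% lower in control mice and 24.6% and 11.7% in tKO mice. For this list and those that follow, the limit of the count filter given above applies, and the counts of calls are a description. Mbl2, a lectin of complement activation, was at 23.4 ± 3.26 CPM in control mature and 0.107 ± 0.214 CPM in control immature mTEC, and antithrombin (Serpinc1) at 35.3 ± 6.09 against 7.61 ± 5.24 CPM (log2 fold change 2.18, adjusted p = 1.19e-06, edgeR). Among those lower were Apoe (137 ± 36.9 against 1739 ± 624 CPM, log2 fold change -3.62, adjusted p = 1.73e-12) and Pros1. Apoe, a ligand of lipoprotein receptors, lies in the same cluster as Apoc1.

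Among 18 transcription factors of hepatocytes and enterocytes, 13 were tested and 10 were called higher in mature mTEC of control mice, with 0 lower. Hnf4a was at 13.8 ± 1.65 against 2.09 ± 0.981 CPM and Foxa1 at 51.3 ± 2.79 against 14.96 ± 3.42 CPM (log2 fold changes 2.67 and 1.79, adjusted p = 1.75e-06 and 6.85e-08, edgeR). Cebpa, at 136 ± 30.0 against 164 ± 31.6 CPM, was not called. In tKO mice 14 were tested, with 10 called higher and 2 lower (Foxa2 and Prox1). Of 20 hepatocyte enzymes, 19 were tested and 16 were called higher and 0 lower in both sets of mice, for example carbamoyl-phosphate synthase (Cps1) of the urea cycle, at 31.4 ± 6.999 against 1.97 ± 1.98 CPM, and phosphoenolpyruvate carboxykinase (Pck1) of gluconeogenesis, at 58.6 ± 10.5 against 2.96 ± 2.44 CPM in control mice.

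The 12 genes of lipoprotein assembly, lipolysis and uptake were split. Mttp, which loads lipid onto the Apob protein, was at 82.1 ± 18.97 CPM in control mature and 8.35 ± 3.06 CPM in control immature mTEC (log2 fold change 3.27, adjusted p = 1.03e-08), and Lrp2 and Lpl were also called higher in control mice. The phospholipid transfer protein Pltp was lower, at 68.9 ± 11.7 against 550 ± 136 CPM (-2.97, adjusted p = 1.4e-12, edgeR), as were Vldlr, Lrp1 and Abca1. Of the 19 mTEC identity markers, 18 were tested, with 5 called higher in mature mTEC (Aire, Cd40, Cd80, Cd86 and Fezf2) and 7 lower, among them Krt5 and Krt14. No gene of these further lists was called in a comparison of tKO with control or in the interaction.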

How the data were processed

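RNA from sorted mature and immature mTEC of 8 mice was sequenced as stranded paired-end polyA libraries on an Illumina HiSeq instrument. Per the submitters' processing notes and the study's methods, the authors aligned reads to mm10 with HISAT2 2.1.0, removed duplicates with Picard 2.10.9, down-sampled each library to 14500000 (mature) or 10000000 (immature) reads, as the file's headers state, and counted reads per gene with featureCounts 1.6.0 over Ensembl genes and loci they had assembled. The deposited values are these raw counts per gene, with no normalization. For the strand setting of the counting, no source used here gives it, so reads of a gene and an overlapping or antisense gene may not be separated. Apoa4, Apoh, Fgg, Plg and Trf overlap exons of other genes.

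Groups came from the sample labels. Counts were TMM-scaled, filtered with filterByExpr (minimum count 10) and tested with edgeR 4.0.16 in R 4.3.3 (glmQLFit and glmQLFTest), adjusted by Benjamini-Hochberg over all genes tested. Mature and immature mTEC were compared in control and in tKO mice with line as a covariate, the 2 differences in 1 fit with a mean for each of the 8 groups, and each tKO with its controls within a population. Calls needed an adjusted p under 0.05 and, except for the interaction, an absolute log2 fold change over 1. DESeq2 1.42.0, other scalings, filters and blocks and leaving out each replicate were alternatives, and the fit on Ensembl genes alone was added after seeing the data. The fits were tested on simulated data. Python 3.11.15 with pandas 2.3.3, scipy 1.17.1 and matplotlib 3.10.9 made the tables and plots. Counting intervals are exact (Clopper-Pearson, 95%), and the floor for a count of 0 is 3 counts over the 4 libraries of a set.

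The members and the other lists were chosen with earlier results of these data known, although the rule that matches the members uses no measured value. Named with full values were the 6 members with the highest CPM in control mature mTEC, the 5 with the largest and the 5 with the smallest log2 fold change among those called in control mice, the 2 with the smallest p in each comparison without a call, those with 10 or fewer counts in all, and neighbors within 100 kb. The other members are given in less detail. Both libraries of a mouse come from the same animal, so the mouse is a true pairing. They deviated together from their group means (correlation over genes 0.088 to 0.164). The animals of a group also differed in sex, so this correlation cannot tell mouse from sex. Results for a few genes of the other lists are not reported here.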

Additional observations from a re-analysis of the deposited data

Results flagged for a closer look

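In 56 groups of 4 libraries over the 15 named members, 5 libraries stood far from the other 3 of their group (gap over range above 0.829). The cut-off flags about 1 in 20 groups when the 4 values are independent and normally distributed. Each group here pools both lines and some hold few counts, so that rate need not apply. All 5 were in tKO libraries, which was not tested. Rbfox2 tKO immature replicate 2 had Afp at 0.690 CPM, which was 1 count, with the others at 0. Rbfox1 tKO mature replicate 2 had Apoa1 at 93.3 CPM, below the others at 108.5 to 110.5. Rbfox1 tKO mature replicate 3 had Apoa4 at 330.6 CPM, below the others at 380.3 to 383.7. Rbfox1 tKO immature replicate 3 had Apob at 13.3 CPM, above the others at 0 to 1.39, and Fgg at 1.02 CPM, below the others at 2.76 to 2.79.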

How the results depend on the processing

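Under the alternatives no named member changed direction. Of their log2 fold changes, 532 kept their side of the threshold and 10 newly passed it. All 28 members called in control mice were also called by DESeq2, which called 30, with DESeq2's size factors, with library totals and with the mouse as a block. A filter of at least 10 counts in every library left 22 of the called members untested in either set of mice. In control mice these 22 were all genes called higher. Under this filter 8 members were called in control mice. Gc, Orm1 and Saa1 were higher in mature mTEC, Apoc1, Crp and C3 lower, and Fetub and Hp were gained. In tKO mice 7 were called, with Apoa4, Hp, Orm1 and Saa1 higher, Crp and C3 lower, Gc gained and Rbp4 lost. Of all genes, 2148 and 2167 were called. The numbers of genes tested under the alternatives are not given here, so no shares are set beside these calls. Thinning to equal depth gave 26 member calls in tKO mice, 25 of them among the 29, with Gc gained, Orm1 lost and Apoh, F7 and Plg untested. In control mice F7 was then untested. Sex as a covariate left 0 members called in each tKO comparison.

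For all genes, no fold threshold gave 10717 calls in control and 10428 in tKO mice, and 10 (mature) and 12 (immature) for Rbfox2 tKO. No filter gave 9627 calls in tKO mice, 23 for the interaction, 10 and 27 for Rbfox1 tKO (mature, immature) and 8 and 48 for Rbfox2 tKO, with 1 member called, Apoc1 in immature mTEC. All 16 libraries in 1 fit gave 11 for Rbfox2 tKO immature mTEC. The cause of these shifts was not tested. Members with at least 5 counts in the thinned libraries averaged 33.25 in mature and 14.88 in immature mTEC.

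The mouse as a replicate block gave 27 interaction calls and changed no member call. Pairing tKO and control by replicate number as a replicate block gave 5 calls in mature and 4 in immature mTEC for Rbfox1 and 5 and 10 for Rbfox2, with 0 members. Those numbers are shared by separate animals of the same sex (correlations 0.036 to 0.147).

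Leaving out 1 replicate gave 28 to 30 members called in control and in tKO mice and 0 in all other comparisons. For all genes it gave 5937 to 6080 calls in control mice, 5824 to 6037 in tKO mice, 0 to 4 for the interaction, 3 to 8 and 4 to 6 in mature mTEC for Rbfox1 and Rbfox2 tKO, and 4 to 11 and 5 to 10 in immature mTEC. Depth limits the immature libraries most, where members near 0 rest on few counts.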
